A study of Mus musculus with 16 samples.

Results

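The genes described here are 42 megakaryocyte and platelet genes, taken by name from a list drawn up for this work. The list was chosen with earlier results of these data known. RNA was read in bone marrow from 16 mice with 1-colour Agilent arrays. All 42 were on the array, out of 34650 gene names it holds, and all 42 passed the filter on dim probes that left 23053 names to test. The 8 KO chimeras were lethally irradiated (950 rad) C57BL/6J mice reconstituted with whole marrow of Adrb1tm1BkkAdrb2tm1Bkk/J donors, a strain that carries targeted alleles of 2 beta adrenergic receptor genes in all its tissues. The cells were given by a retro-orbital injection at a stated ratio of 1 part donor to 4 parts C57BL/6J, and the labels do not say what the ratio counts. The 8 controls were C57BL/6J mice whose labels give the same 950 rad. Recovery lasted 2 to 3 months. The labels name no marrow donor for the controls, so receptor loss, the donors' genetic background and the graft itself cannot be told apart. Age and sex are not given in the labels.

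Megakaryocytes are the large polyploid cells of the marrow that shed platelets into the blood. They stock the platelet in advance with adhesion receptors, granule cargo, receptors for soluble agonists and the machinery of clotting and secretion, under factors of the GATA, ETS and NFE2 families and the hormone thrombopoietin. Sympathetic nerves reach the marrow, where noradrenaline can act on beta adrenergic receptors of blood-forming and stromal cells.

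The sequences shown first are the 250 bases before the annotated start of 5 members, shown because Pf4, Gp6 and Clec1b fell while Itga2b and Gp9 did not pass the test. They are from RefSeq on build GRCm38.p6, run 5′ to 3′ on the strand of the gene, and lie at chr5:90772185-90772434 (Pf4, plus strand), chr11:102469884-102470133 (Itga2b, minus strand), chr6:87777820-87778069 (Gp9, plus strand), chr7:4397745-4397994 (Gp6, minus strand) and chr6:129397047-129397296 (Clec1b, plus strand). Capitals mark a match, on either strand, to words known from factor binding sites: AGATAA, and with it TGATAA, for the GATA family, CAGGAAG, and with it CCGGAAG, for the ETS family, and TGACTCA for NFE2 and AP-1.
Pf4: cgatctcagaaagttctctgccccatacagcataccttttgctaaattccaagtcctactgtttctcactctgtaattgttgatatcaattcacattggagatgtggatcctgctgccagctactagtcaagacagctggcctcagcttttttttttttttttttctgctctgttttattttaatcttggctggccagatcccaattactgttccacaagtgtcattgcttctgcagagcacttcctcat
Itga2b: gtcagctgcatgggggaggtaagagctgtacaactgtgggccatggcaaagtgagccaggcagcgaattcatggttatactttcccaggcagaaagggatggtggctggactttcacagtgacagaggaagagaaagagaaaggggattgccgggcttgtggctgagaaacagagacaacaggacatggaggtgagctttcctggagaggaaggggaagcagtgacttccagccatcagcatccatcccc
Gp9: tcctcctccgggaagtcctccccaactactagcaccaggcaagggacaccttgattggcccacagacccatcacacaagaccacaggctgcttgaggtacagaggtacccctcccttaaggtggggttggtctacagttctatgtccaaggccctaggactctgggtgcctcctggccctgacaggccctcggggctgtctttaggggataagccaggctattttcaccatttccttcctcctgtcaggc
Gp6: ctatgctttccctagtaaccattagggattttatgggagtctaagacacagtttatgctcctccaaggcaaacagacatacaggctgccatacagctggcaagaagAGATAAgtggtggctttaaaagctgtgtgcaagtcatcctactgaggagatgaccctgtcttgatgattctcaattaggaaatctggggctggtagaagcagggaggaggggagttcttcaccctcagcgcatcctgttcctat
Clec1b: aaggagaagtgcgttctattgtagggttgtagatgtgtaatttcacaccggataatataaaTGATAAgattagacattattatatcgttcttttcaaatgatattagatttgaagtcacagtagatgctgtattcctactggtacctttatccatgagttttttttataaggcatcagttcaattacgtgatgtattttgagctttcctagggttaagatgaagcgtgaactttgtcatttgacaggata

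The Gp6 stretch holds AGATAA 144 to 139 bases before the start, and the Clec1b stretch holds TGATAA 189 to 184 bases before it. The other 3 stretches hold none of the 5 words. RefSeq windows were matched for 34 of the 42 members, and a gene with several windows was counted once, as holding a word if any window did. A GATA word lay in the window of 7 of these 34 members (Clec1b, F2rl2, Gp1ba, Gp5, Gp6, Mmrn1 and P2rx1), against 18.8% of the 27025 genes with a window. An ETS word lay in 3 (Gp1ba, Pear1 and Tbxa2r), against 19.0% of genes, and TGACTCA in 2 (F2r and F2rl2), against 5.16%. All the members with a word were among the 17 with a window that were called lower, and none was among the other 17. That split follows calls made on these arrays and was not tested. The lowered members Cd226, Itgb3, Rab27b and Vwf had no matched window. The GATA words differ only in their first letter and the ETS words only in their second, so the words of a pair cannot match at the same place. A match is a description of the letters and not a binding site.

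A probe reports only the stretch it matches. Probes of 2 members are shown, Clec1b because its probes fell by unlike amounts and Tubb1 because its value rests on 1 probe. These are the 60-base array probes, with the positions the files give on build mm9: the upstream Clec1b probe at chr6:129350113-129350172, a second Clec1b probe at chr6:129353604-129353663, and the probe that stands for Tubb1 at chr2:174283277-174283336. Each holds at least 1 reading frame without a stop. No letters are capitalised in them.
Clec1b upstream probe: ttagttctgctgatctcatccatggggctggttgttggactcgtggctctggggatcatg
Clec1b second probe: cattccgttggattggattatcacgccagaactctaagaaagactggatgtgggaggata
Tubb1 probe: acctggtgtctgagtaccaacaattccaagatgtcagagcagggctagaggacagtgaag

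Levels are given as the log2 of a probe's signal over the 75th percentile of its array, and a difference is KO chimera minus control on that log2 scale, with the SE of the limma fit over all genes (8 mice per group). A gene is called at a Benjamini-Hochberg adjusted p under 0.05 over all 23053 names. The 75th percentile, in intensity units, was between 127 and 545 for KO chimeras and between 231 and 558 for controls, and the probes well above background numbered 27792 to 37121 for KO chimeras and 29326 to 38762 for controls. There were 6 slides, 1 of them with a control array alone, and 2 scan days, each with 4 arrays of either group. Adrb1, targeted in the donors, differed by -0.00041 ± 0.11 (adjusted p = 0.998). No source used here places its probe inside or outside the targeted stretch, so it checks no label. Precision is limited by the number of mice.

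The members were lower in the marrow of KO chimeras far more often than higher. They were chosen with earlier results of these data known, so their counts beside all genes are a description. Of the 42 members, 21 fell, 2 rose and 19 did not pass the test. Over all genes tested, 12.1% were called lower and 10.2% higher. The median difference was -0.47 over the 42 members and -0.02 over all genes, and 32 of the 42 differences were below 0. A fall of at least 1 on the log2 scale was called for 10 members, against 3.18% of all genes, and 5 of the lowered members were lower by at least that much with normexp, a model-based correction of the background. In whole marrow, fewer megakaryocytes and less RNA per megakaryocyte cannot be told apart. The genes of the list were detected in both groups: 39 members were well above background on at least 6 arrays of each group, and Gp6, F2rl2 and Gucy1b3 passed the filter through the controls alone. Among those 39, 19 were lower, 2 higher and 18 not called, with a median difference of -0.39, and 8 were lower by at least 1.

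**Figure D1:**
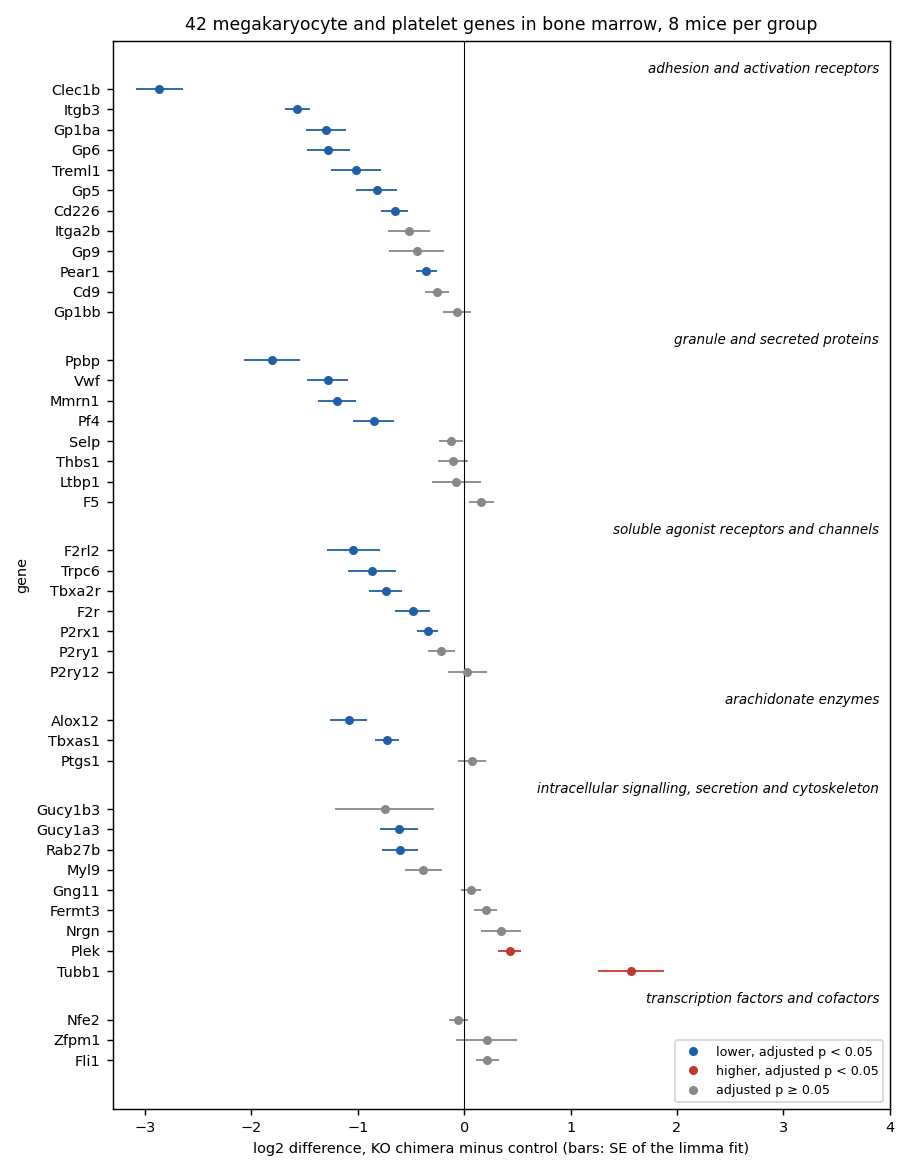
Log2 difference (KO chimera minus control, horizontal axis) of each of the 42 genes, grouped by role, with bars for the SE of the limma fit over 8 mice per group. Blue points mark the 21 genes called lower and red points the 2 called higher; the receptors and granule genes reach furthest left, and the 3 transcription regulators lie near 0.

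Adhesion and activation receptors, with which a platelet grips a damaged vessel wall and other platelets, held the largest fall. Of 12 members, 8 fell, none rose and 4 did not pass. Clec1b encodes CLEC-2, the platelet receptor for podoplanin. Its log2 level ran from 0.18 through a median of 0.44 to 0.75 in controls and from -3.25 through -2.50 to -1.20 in KO chimeras. The groups lay far apart, and the KO chimeras were spread more widely than the controls. Clec1b fell by 2.87 ± 0.22 (adjusted p = 5.60e-08), a 7.29-fold lower signal in KO chimeras. With normexp background correction Clec1b fell by 1.96.

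Itgb3, the beta chain of the platelet fibrinogen receptor, had levels of 2.81, 3.12 and 3.28 (lowest, median, highest) in controls and of 1.18, 1.48 and 2.10 in KO chimeras. Every KO chimera was below every control. Itgb3 fell by 1.57 ± 0.12 (adjusted p = 3.66e-08). The alpha chain of the same receptor is Itga2b, also called CD41, which marks megakaryocytes and some early progenitors. Its levels were -1.29, -0.64 and 0.06 in controls and -1.61, -1.20 and -0.59 in KO chimeras, so the groups overlapped widely. The difference of -0.52 ± 0.20 did not pass (adjusted p = 0.0707), and its 95% interval ran from -0.94 to -0.10. It was called at -0.62 without control 2 (adjusted p = 0.0305) and at -0.60 without KO chimera 7 (adjusted p = 0.0388). With all 16 mice and array weights in the limma fit, it was called at -0.53 (adjusted p = 0.0417). The difference between the 2 chains was not tested.

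The receptor complex for von Willebrand factor is made of the products of Gp1ba, Gp1bb, Gp9 and Gp5. Gp1ba, its ligand-binding chain, had levels of -0.63, 0.03 and 0.56 in controls and of -1.72, -1.36 and -0.51 in KO chimeras, where only the highest KO chimera reached the lowest controls. Gp1ba fell by 1.30 ± 0.19 (adjusted p = 7.65e-05) and Gp5 by 0.82 ± 0.19 (adjusted p = 0.00469), or by 0.49 with normexp background correction. Gp9 had levels of 0.72, 1.48 and 1.88 in controls and of -0.02, 1.10 and 1.88 in KO chimeras, and the ranges covered each other almost entirely. Its difference of -0.45 ± 0.26 did not pass (adjusted p = 0.240), with a 95% interval from -0.99 to 0.10. Gp1bb differed by -0.07 ± 0.13 (adjusted p = 0.756), with an interval from -0.34 to 0.20. Among the 4 chains of this complex, 2 were called and 2 were not.

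Gp6, the collagen receptor, had levels of -3.22, -2.84 and -2.23 in controls and of -4.88, -3.89 and -3.48 in KO chimeras. The groups did not overlap, and the probe was well above background on 8 control arrays and 5 KO chimera arrays. Gp6 fell by 1.28 ± 0.20 (adjusted p = 1.79e-04), or by 0.39 with normexp background correction and quantile normalization. Treml1, a receptor held in granules until the platelet is activated, had levels of 0.94, 1.56 and 1.90 in controls and of -0.67, 0.50 and 1.58 in KO chimeras. The highest KO chimera alone lay within the control range. Treml1 fell by 1.02 ± 0.23 (adjusted p = 0.00417), or by 0.89 with normexp background correction. The adhesion molecule Cd226, shared with T and NK cells, fell by 0.65 ± 0.13, or by 0.37 with normexp background correction, and Pear1, a receptor that signals on platelet contact, fell by 0.36 ± 0.10. Cd9, an abundant platelet tetraspanin, did not pass at -0.25 ± 0.11 (adjusted p = 0.123).

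Clec1b, Itgb3, Gp6 and the enzyme gene Tbxas1 were the 4 members in which every KO chimera lay below every control, and no member had every KO chimera above. Over all genes tested, 3.27% had all KO chimeras below all controls and 2.87% had them above, 6.13% in either direction. Gp6 passed the filter through the controls alone. Among the 39 members above background on at least 6 arrays of each group, 3 had all KO chimeras below all controls. The other 17 lowered members overlapped, mostly through few mice: in 20 of the 21 the median of the KO chimeras was below the lowest control.

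**Figure D2:**
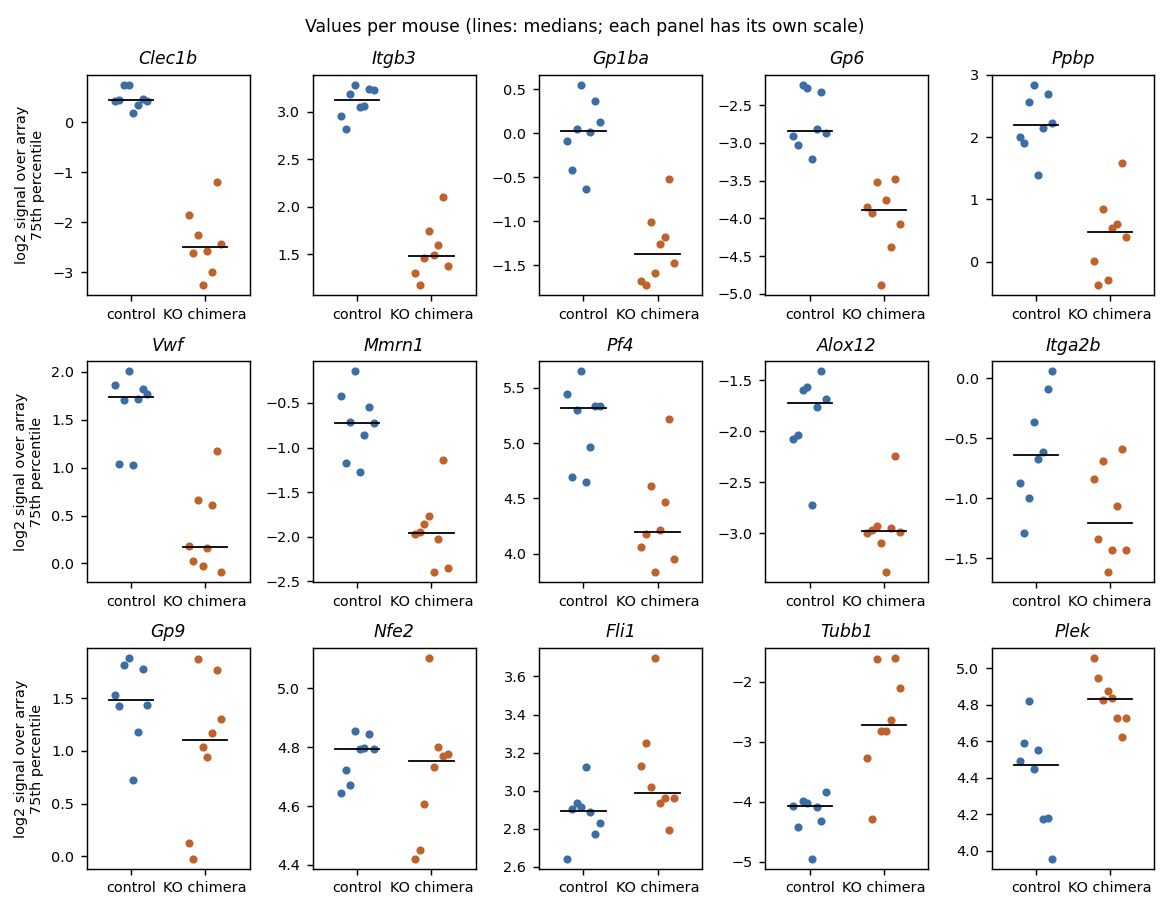
Log2 signal over the array's 75th percentile (vertical axis, a separate scale per panel) of 15 genes in each of 8 control mice (blue) and 8 KO chimeras (orange), with a line at each median. Clec1b, Itgb3 and Gp6 show no overlap, Itga2b, Gp9, Nfe2 and Fli1 overlap, and Tubb1 and Plek are higher in KO chimeras.

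Granule and secreted proteins divided evenly: 4 of 8 members fell, none rose and 4 did not pass. Ppbp, the precursor of the platelet chemokine CXCL7, had levels of 1.39, 2.19 and 2.85 in controls and of -0.37, 0.47 and 1.58 in KO chimeras. The highest KO chimera alone reached above the lowest control. Ppbp fell by 1.81 ± 0.26 (adjusted p = 8.25e-05). Its neighbour Pf4, platelet factor 4, lies 3.25 kb from it between probes on chromosome 5 and had levels of 4.64, 5.32 and 5.65 in controls and of 3.84, 4.20 and 5.22 in KO chimeras. Here too the highest KO chimera alone lay within the control range, and Pf4 fell by 0.85 ± 0.19 (adjusted p = 0.00366).

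Vwf encodes von Willebrand factor, the adhesive multimer that megakaryocytes and endothelial cells store. Its levels were 1.03, 1.74 and 2.01 in controls and -0.09, 0.17 and 1.18 in KO chimeras, with 1 KO chimera above the lowest controls, and it fell by 1.28 ± 0.19 (adjusted p = 1.16e-04). Mmrn1, multimerin, which binds factor V in granules, had levels of -1.28, -0.72 and -0.15 in controls and of -2.39, -1.96 and -1.14 in KO chimeras. It fell by 1.20 ± 0.18 (adjusted p = 1.24e-04), or by 0.81 with normexp background correction. Both genes are also made by endothelium, whose markers are given further on.

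The 4 granule members that did not pass were close to 0. Selp, the adhesion molecule P-selectin, differed by -0.12 ± 0.11, Thbs1, thrombospondin, by -0.11 ± 0.14, and Ltbp1, which holds latent TGF-beta, by -0.07 ± 0.23. F5, coagulation factor V, differed by 0.16 ± 0.12. The 95% intervals of these 4 ran from -0.55 at the lowest (Ltbp1) to 0.41 at the highest (Ltbp1 and F5), so falls of the size of Ppbp, Vwf or Mmrn1 lie outside them.

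Receptors and channels for soluble agonists fell in 5 of 7 members, with none higher. F2rl2, the thrombin-binding receptor PAR3 of mouse platelets, was dim, at -4.28, -3.54 and -3.44 in controls and -6.16, -4.42 and -4.11 in KO chimeras. It was well above background on all 8 control arrays and on 2 of 8 KO chimera arrays, so it passed the filter through the controls alone. F2rl2 fell by 1.04 ± 0.25 (adjusted p = 0.00621), or by 0.28 with normexp background correction. Its neighbour F2r, the thrombin receptor PAR1, fell by 0.49 ± 0.17 (adjusted p = 0.0434), and this call was lost on leaving out any of 12 of the 16 mice in turn (adjusted p up to 0.0838). It was kept without control 2, control 5, KO chimera 3 or KO chimera 7.

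Trpc6, a cation channel, fell by 0.87 ± 0.23, Tbxa2r, the receptor for thromboxane, by 0.74 ± 0.16, and P2rx1, the channel opened by ATP, by 0.34 ± 0.10 (adjusted p = 0.0102, 0.00258 and 0.0204). With normexp background correction Trpc6 fell by 0.53. The ADP receptors did not pass. P2ry1 differed by -0.21 ± 0.13 and P2ry12 by 0.03 ± 0.18, with 95% intervals of -0.48 to 0.06 and -0.35 to 0.41.

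Of the 3 enzymes that act on arachidonate, 2 fell. Alox12, the platelet 12-lipoxygenase, had levels of -2.72, -1.72 and -1.41 in controls and of -3.38, -2.98 and -2.24 in KO chimeras. Most KO chimeras were within a narrow band below the controls, and the highest stood apart. Alox12 fell by 1.09 ± 0.18 (adjusted p = 2.47e-04), or by 0.53 with normexp background correction. Tbxas1, thromboxane synthase, which is also made in macrophages, fell by 0.72 ± 0.11 (adjusted p = 1.68e-04). Ptgs1, cyclooxygenase 1, supplies Tbxas1 with its substrate and differed by 0.07 ± 0.13, with an interval from -0.20 to 0.35.

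Intracellular signalling, secretion and cytoskeleton genes went both ways: of 9 members, 2 fell, 2 rose and 5 did not pass. Rab27b, a GTPase of granule secretion, fell by 0.61 ± 0.17. Gucy1a3, the alpha chain of the nitric oxide receptor guanylate cyclase, fell by 0.62 ± 0.18 (adjusted p = 0.0202). With normexp background correction it differed by -0.25 and the call was lost (adjusted p = 0.0549). Its beta chain Gucy1b3 was well above background on 7 arrays of controls and 2 of KO chimeras and did not pass at -0.75 ± 0.47 (adjusted p = 0.284), but differed by -1.11 (adjusted p = 0.0341) without KO chimera 7. Myl9, a myosin light chain, differed by -0.39 ± 0.17 (adjusted p = 0.125, and 0.0496 without control 5). Of the others, Gng11, a G protein gamma subunit, differed by 0.06 ± 0.09, Fermt3, the integrin activator kindlin-3, by 0.20 ± 0.11, and Nrgn, which binds calmodulin, by 0.35 ± 0.19.

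Tubb1 and Plek were the members that rose. Tubb1, the beta tubulin of the platelet's marginal band, had levels of -4.95, -4.07 and -3.83 in controls and of -4.28, -2.73 and -1.60 in KO chimeras. Most KO chimeras stood well above the controls, and the lowest was within the control range. Tubb1 rose by 1.57 ± 0.31 (adjusted p = 0.00155) and was the only member called higher by at least 1, against 1.86% of all genes. This value rests on the 1 probe whose letters are printed above, which was well above background on 7 arrays of each group. With normexp background correction it rose by 0.56. Plek, pleckstrin, a target of protein kinase C in platelets that other white cells also hold, rose by 0.43 ± 0.11 (adjusted p = 0.0104).

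The 3 transcription regulators did not pass. Nfe2, which drives late megakaryocyte maturation and is also used by erythroid cells, had levels of 4.65, 4.79 and 4.86 in controls and of 4.42, 4.75 and 5.10 in KO chimeras. The medians were close and the KO chimeras reached past the controls on both sides, with a difference of -0.06 ± 0.09 and a 95% interval from -0.25 to 0.13. Fli1, an ETS factor of megakaryocyte genes, had levels of 2.64, 2.89 and 3.12 in controls and of 2.80, 2.99 and 3.70 in KO chimeras. Its difference was 0.22 ± 0.11, with an interval from -0.02 to 0.45. Zfpm1, the GATA1 partner FOG1, had levels of 3.24, 4.49 and 4.70 in controls and of 3.33, 4.62 and 5.39 in KO chimeras, and its difference of 0.21 ± 0.29 had the widest interval of the 3, from -0.39 to 0.82.

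Probe by probe, the 42 members had 58 probes, of which 53 passed the filter. Of these, 28 were lower, 3 higher and 22 not called, where 12.2% of all 32675 probes tested were lower and 11.4% higher. In 9 members several probes passed. The 3 Clec1b probes lie in order along the gene: the upstream probe fell by 0.76 ± 0.09, and the second and the most downstream probe fell by 2.87 ± 0.19 and 2.87 ± 0.22. The upstream probe ran from -0.86 to -0.51 in controls and from -1.86 to -1.20 in KO chimeras, so it too separated the groups, with a smaller gap. The probes of Itgb3 fell by 1.57 ± 0.12 and 0.57 ± 0.13, those of Vwf by 1.28 ± 0.19 and 0.76 ± 0.22, and in both genes the brighter probe fell more. In Cd226, Rab27b and Pear1 the dimmer probe fell more, by 1.45 ± 0.31 against 0.65, by 0.84 ± 0.27 against 0.61 and by 1.12 ± 0.19 against 0.36. Differences between probes of a gene were not tested.

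The remaining 3 members with several probes gave mixed readings. For F5 the dimmer probe, with levels of -0.29, 0.14 and 0.59 in controls and of 0.22, 0.52 and 0.97 in KO chimeras, rose by 0.39 ± 0.13 (adjusted p = 0.0386). The brighter F5 probe, at 1.79, 1.98 and 2.39 in controls and 1.85, 2.17 and 2.66 in KO chimeras, did not pass. The Ltbp1 probes differed by -0.07 ± 0.23 and 0.08 ± 0.14. The brighter Ltbp1 probe had levels of -3.43, -2.65 and -2.11 in controls and -3.71, -2.82 and -2.19 in KO chimeras. Of the Zfpm1 probes, 2 that overlap on the genome differed by 0.21 ± 0.29 and 0.21 ± 0.30 and the dimmer one by -0.16 ± 0.22. None of the Ltbp1 or Zfpm1 probes was called.

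**Figure D3:**
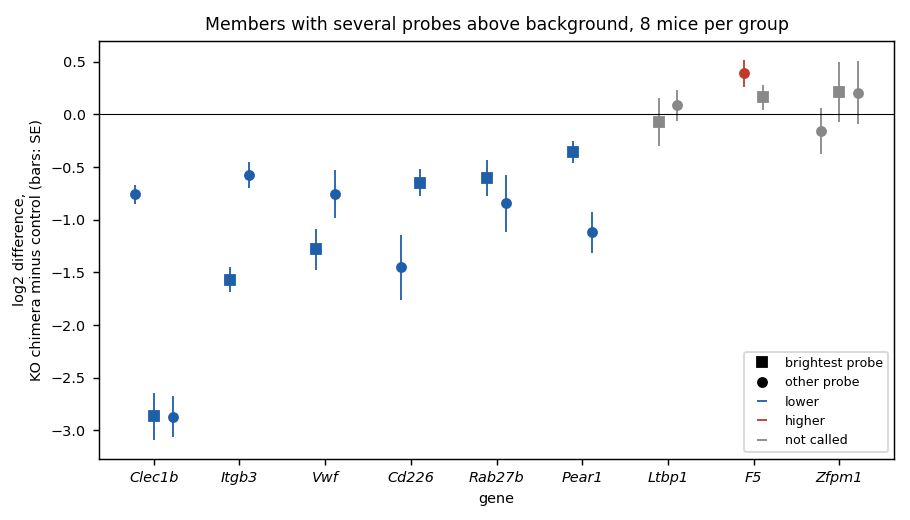
Log2 difference (KO chimera minus control, vertical axis, bars for the SE) of every probe that passed the filter in the 9 members with several such probes; squares are the brightest probe of a gene and circles the others. All probes of Clec1b, Itgb3, Vwf, Cd226, Rab27b and Pear1 are below 0 and called lower, and the upstream Clec1b probe (-0.76) stands apart from the other 2 (-2.87 each).

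The mice differed from one another in a shared way. The median deviation of the 21 lowered members from the control mean was between -1.24 and -0.73 in 7 of the KO chimeras and -0.41 in KO chimera 7. In controls it ran from -0.50 (control 5) to 0.39 (control 4). These medians describe genes that were chosen by the difference between groups and test nothing. KO chimera 7 had the highest level of its group for 16 of the 21 genes, and KO chimera 4 the lowest for 9. Control 4 was the highest control for 13 and control 5 the lowest for 13. KO chimera 7 had the brightest array of its group, with a 75th percentile of 545 intensity units, while control 4 had the dimmest array of its own, at 231, and the part of brightness in these values was not tested. Without KO chimera 7, 23 members were called lower, Itga2b and Gucy1b3 among them, and 2 higher, where 12.14% and 10.96% of all genes were.

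**Figure D4:**
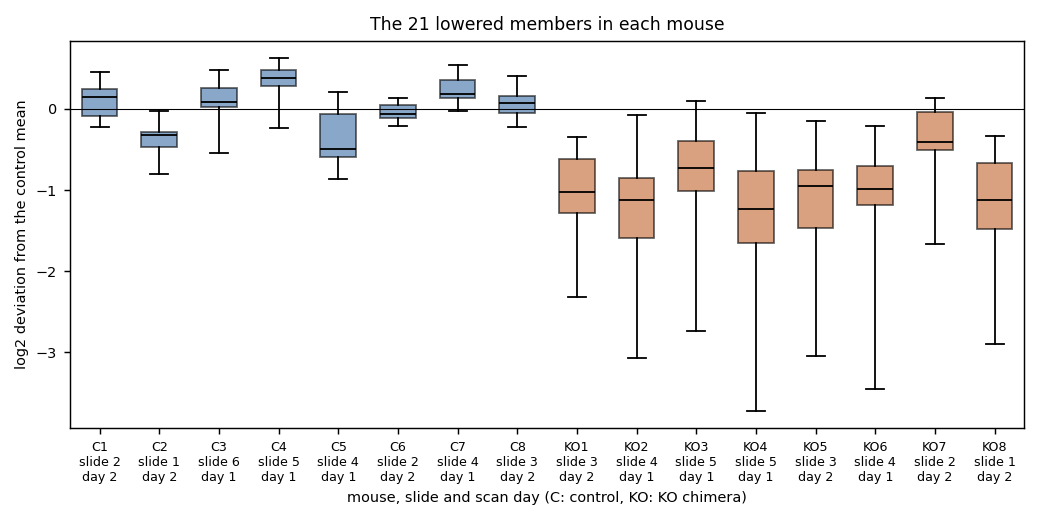
Log2 deviation from the control mean (vertical axis) of the 21 lowered members in each mouse, with slide and scan day under each name; boxes span the quartiles over the 21 genes, the line is the median, and whiskers reach the lowest and highest gene. Control medians lie between -0.50 and 0.39 and those of the KO chimeras between -1.24 and -0.41, the highest being KO chimera 7.

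The 21 lowered members were chosen on these same arrays, so their counts by slide and scan day are a description. On the 5 slides that held both groups, between 19 and 21 of the 21 lowered members were below 0, with the weakest median over all 42 members on slide 2 (-0.07), which carried KO chimera 7, and the strongest on slide 3 (-0.63). Within scan day 1 (4 mice per group), 12 members were called lower and none higher, where 3.96% of all genes were called lower and 3.03% higher. Within scan day 2, 10 were called lower and 1, Tubb1, higher, where 4.75% and 5.28% of all genes were. Clec1b differed by -3.31 on day 1 and by -2.42 on day 2, and Ppbp by -2.18 and -1.44. With slide as a block in the fit, 21 members were again lower and 2 higher, where 10.8% and 10.2% of all genes were.

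The members lie on 16 chromosomes, with 7 on chromosome 6 and 6 on chromosome 11. Of the 7 on chromosome 6, Clec1b, Mmrn1, Tbxas1 and Vwf fell. Close neighbours were at times called alike and at times not. Ppbp and Pf4 both fell, as did F2r and F2rl2, whose probes lie 99.9 kb apart, and Alox12 and Gp1ba, 400 kb apart. Vwf fell while Cd9, 226 kb away, did not pass, and Selp and F5, 70.5 kb apart, were both uncalled.

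Beyond the 42 members, 6 lists of other genes of the pathway, drawn up with earlier results of these data known, held 134 tested genes. Of these, 25 were lower and 13 higher, with a median difference of -0.0014, against 12.1% lower and 10.2% higher over all genes. By their brightest probes, 6 of 17 other platelet surface proteins fell and none rose, with a median of -0.28. A second probe of Itga6, an integrin alpha chain, fell by 1.54 (adjusted p = 8.77e-08) while its brightest did not pass at -0.30 ± 0.12, and a second probe of the receptor Cd84 rose by 0.33 (adjusted p = 0.0170). The inhibitory receptor G6b fell by 1.39 ± 0.24, and passed the filter through the controls alone, with 7 control arrays and 1 KO chimera array well above background. F2rl3, the thrombin receptor PAR4 that signals in mouse platelets, fell by 0.58 ± 0.16, and its second probe did not pass at -0.40 ± 0.23. The junction molecule F11r fell by 0.98 ± 0.27 and the tetraspanin Cd151 by 0.32 ± 0.07, while a second Cd151 probe differed by 0.38 ± 0.18 without a call.

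Of the thrombopoietin axis, 3 of 13 tested genes fell and 3 rose. Cish, a feedback inhibitor of cytokine signalling, fell by 0.68 ± 0.09 (adjusted p = 3.57e-05), and the kinase Jak2 fell by 0.49 ± 0.09. Both had every KO chimera below every control. Pim1, a kinase induced by cytokines, rose by 0.52 ± 0.11. The hormone gene Thpo did not pass the filter on dim probes.

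Other megakaryocyte transcription factors moved little: of 20, 2 fell, 2 rose and 16 did not pass, with a median of 0.02. Meis1 fell by 0.63 ± 0.12 and Gata2 by 0.56 ± 0.11, while Mafk, a partner of Nfe2, rose by 0.38 ± 0.08 and Runx1 by 0.30 ± 0.09, with a second Runx1 probe at -0.09 ± 0.09.

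Other granule proteins fell in 5 of 29 and rose in 2, with a median of 0.04. Timp3, an inhibitor of matrix proteases, fell by 0.93 ± 0.19, the chemokine Ccl5 by 0.82 ± 0.18 and Slc35d3, needed for dense granules, by 1.06 ± 0.24, while Pdgfa, a platelet growth factor chain, rose by 0.57 ± 0.11. Other signalling proteins fell in 5 of 33 and rose in 4, with a median of -0.01. Mrvi1, an inositol trisphosphate receptor partner, fell by 1.18 ± 0.17, Prkca, a protein kinase C, by 1.36 ± 0.12 (its second probe differed by -0.05 without a call), and the G protein chain Gna13 by 0.46 ± 0.08, although 1 of its other probes rose by 0.46 ± 0.10 and 2 differed by 0.25 and 0.14 without a call. Itpr2, a calcium release channel, rose by 0.57 ± 0.11. Other cytoskeleton genes fell in 4 of 22 and rose in 2. The formin Diap3 fell by 2.36 ± 0.20 without overlap between groups, the actin-binding Tagln2 by 0.48 ± 0.09 (its second probe rose by 0.58 ± 0.12), and the tubulin Tuba8 by 0.41 ± 0.10, while the myosin chain Myh9 rose by 0.29 ± 0.08.

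**Figure D5:**
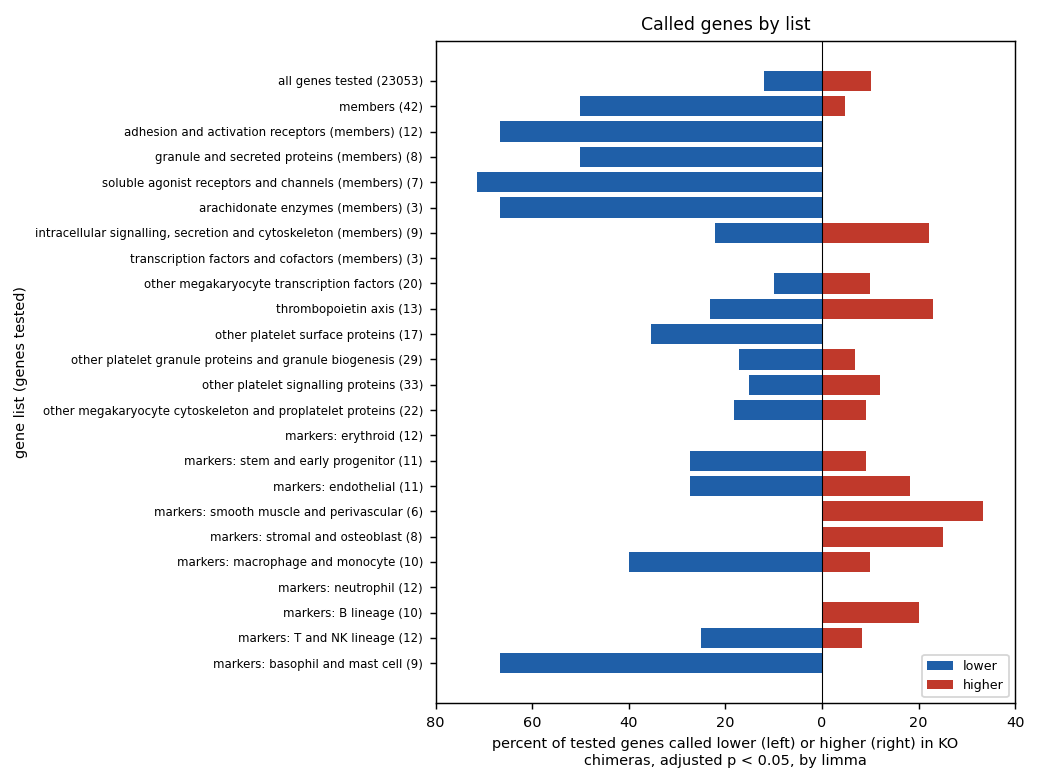
Percent of tested genes called lower (blue, to the left of 0) or higher (red, to the right) in KO chimeras, for all 23053 genes, the 42 members, their 6 roles, 6 lists of other platelet and megakaryocyte genes and 10 lists of markers of other cell types, with the number of genes tested in brackets. Of the members 21 of 42 are lower, of other platelet surface proteins 6 of 17, and of erythroid and neutrophil markers none is called either way by its brightest probe.

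Markers of other marrow cells were read beside the members, since several members are shared with them. Erythroid and neutrophil markers had no calls among 12 genes each by their brightest probes, while second probes of the neutrophil genes Mpo and Camp rose, by 1.08 and 0.47 (adjusted p = 2.10e-04 and 0.0262). The erythroid marker Hbb-b1 differed by -0.67 ± 0.43 (adjusted p = 0.300), and among the brightest neutrophil probes the smallest p belonged to Csf3r (0.22 ± 0.09, adjusted p = 0.0959) and Mpo (0.22 ± 0.12, adjusted p = 0.196). Basophil and mast cell markers fell in 6 of 9, with Hdc at -1.29 ± 0.12, Gata2, Prss34 at -0.49 ± 0.12 and Il4 at -0.66 ± 0.16 the smallest p. The log2 of their summed signal ran from 6.43 to 7.06 in controls and from 5.86 to 6.31 in KO chimeras. Stem and progenitor markers fell in 3 of 11 and rose in 1, with Kit at -0.90 ± 0.09, Procr at 0.85 ± 0.19, Ly6a at -0.37 ± 0.10 and Hlf at -0.36 ± 0.11, and summed signals of 5.28 to 5.91 in controls and 5.12 to 5.58 in KO chimeras.

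Endothelial markers, which bear on Vwf and Mmrn1, fell in 3 of 11 and rose in 2. Of the 3 that fell, Cdh5 and Flt4 passed the filter on dim probes through the controls alone. Among the 8 KO chimeras, 5 had a Cdh5 signal well above background and 0 had such a signal for Flt4. Stab2 rose by 4.99 ± 0.22 and Tie1 by 1.39 ± 0.17, Cdh5 fell by 0.91 ± 0.21 and Flt1 by 0.50 ± 0.12, and the summed signal was 4.56 to 5.07 in controls and 4.93 to 5.45 in KO chimeras. Macrophage and monocyte markers, which bear on Tbxas1, fell in 4 of 10 and rose in 1 (Cd5l -1.50 ± 0.21, Mrc1 -0.77 ± 0.18, Vcam1 -0.58 ± 0.16, C1qa -1.08 ± 0.33, Ccr2 0.67 ± 0.20), with summed signals of 5.87 to 6.44 in controls and 5.88 to 6.71 in KO chimeras. Of the 3 probes each of Csf1r and Cx3cr1, 1 rose, by 0.85 and 0.84, and the brightest and the remaining one were not called. A second Vcam1 probe differed by 0.24 without a call. T and NK markers, which bear on Cd226, fell in 3 of 12 and rose in 1 (Thy1 -1.20 ± 0.16, Cd8a -1.42 ± 0.19, Ncr1 1.00 ± 0.18, Tcra -1.11 ± 0.22), with sums of 5.92 to 6.88 in controls and 5.35 to 6.06 in KO chimeras. A second probe of the NK marker Klrb1c fell by 2.47 while its brightest did not pass at -0.04 ± 0.17. No marker of smooth muscle, stroma or the B lineage fell, and 2 rose in each list: Acta2 (0.67 ± 0.12) and Mcam (0.43 ± 0.11) of 6, Cxcl12 (0.62 ± 0.21) and Dcn (0.82 ± 0.28) of 8, and Vpreb1 (1.36 ± 0.37) and Igll1 (1.40 ± 0.42) of 10. The endothelial markers Tek, Emcn and Sele and the smooth muscle markers Cnn1, Myh11, Des and Rgs5 did not pass the filter on dim probes. The part of these cells in the differences of the 42 members was not tested.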

How the data were processed

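Total RNA of bone marrow was labelled with Cy3 and hybridised to 1 array per mouse, per the labels' protocols. Titles gave the group and number of each mouse, and the labels describe each sample as a separate animal. Images were quantified with Agilent Feature Extraction, version 10.1.1.1 per the file headers and 10.7 per the submitters' processing notes. The deposited scanner files hold spot intensity on a linear scale, with local background subtracted and spatial trend removed in the scanner's own software, per the file headers. Separately, the authors' table of processed values holds log2 values, which correlated with the log2 scanner signal of their arrays at r = 0.991 or more, had column medians of 4.98 to 5.00 and a lowest value of 2.3, and whose centring no source used here states.

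Spots called outliers were left out (123 to 966 of 59305 per array), none was saturated, and spots of a probe were averaged. The log2 signal had the log2 of the array's 75th percentile (control spots left out) subtracted. The filter asked for a signal well above background on 6 or more of 8 arrays in 1 group or the other, which 32675 of 55681 probes met. A gene was read from its brightest such probe. Gene names are those of the array design, and 6 listed symbols were matched to it through synonyms of the RefSeq gene table. Probes carry the mm9 positions of the array files, and promoter sequences are RefSeq's (GRCm38.p6).

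The comparison was fitted in R 4.3.3 by limma 3.58.1 (a two-sided test from eBayes, all 16 mice, no covariate, Benjamini-Hochberg adjustment over all genes, or over all probes for the reading by probe), tested on simulated data first. Intervals are at 95%. The members and gene lists were chosen with earlier results of these data known. All members are named; lowest, median and highest values are given for called members with a log2 difference of at least 1 in size, for members whose probes differ in sign or call, and for Pf4, Itga2b, Gp9, Vwf, Nfe2 and Fli1; of every other list up to 4 called genes with the smallest p are named, or 2 where fewer than 2 passed; some genes that this rule names are not reported here. Alternatives were quantile normalization, normexp background correction (offset 50) with quantile normalization, the authors' values, no filter or a stricter filter on dim probes, the mean of a gene's probes, slide, scan day or replicate number as a block, slides holding both groups, each scan day alone, array weights, a variance trend, a threshold of 0.01 and leaving out each mouse.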

Additional observations from a re-analysis of the deposited data

Results flagged for a closer look

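In each group of 8 mice, the highest and the lowest mouse were set against the rest of their group for each of the 42 genes. In 5 of the 84 groups the gap to the nearest other mouse was more than Dixon's 95% critical share of the whole range, and chance marks about 1 in 20 groups. Control 2 was lowest for F2rl2 at -4.28, with the next control at -3.73. Control 5 was lowest for Zfpm1 at 3.24, with the next control at 4.15. KO chimera 3 was lowest for Cd9 at 4.02, below the next KO chimera at 4.34. KO chimera 4 was highest for Ptgs1 at 3.79, above the next at 3.11. KO chimera 7 was highest for Alox12 at -2.24, above the next at -2.93.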

How the results depend on the processing

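None of the 23 called members changed sign under any alternative run. With quantile normalization, the authors' values, the mean of a gene's probes, slide or scan day as a block, or a variance trend, 21 members were lower and 2 higher. Over all genes, these settings called 10.8% to 12.9% lower and 10.2% to 11.3% higher. Keeping only the slides that held both groups repeats the fit with slide as a block, because the slide left out held a single control array. It is no separate check. Array weights gave 22 lower, where 14.8% of all genes were. Normexp background correction gave 20 lower and 2 higher, where 11.6% and 9.99% of all genes were. Its median was -0.28 in place of -0.47. With it, 7 of the 21 lowered members (Alox12, Cd226, F2rl2, Gp5, Gp6, Gucy1a3 and Trpc6) had a difference over 1.5 times smaller. Without the filter on dim probes, 20 were lower and 2 higher, where 6.75% and 6.29% of all genes were. The filter on all 16 arrays left 37 members, 19 lower and 1 higher. An adjusted p under 0.01 left 15 lower and 1 higher, where 6.98% and 6.03% of all genes were. With 4 mice per group, scan day 1 gave 12 lower and 0 higher members (11 and 2 of the other pathway genes) and scan day 2 gave 10 and 1 (6 and 6). Leaving out each mouse in turn gave 20 to 23 members lower, 2 higher and a median from -0.57 to -0.41. Over all genes, those runs called 10.22% to 12.77% lower and 8.88% to 10.96% higher. Groups share replicate numbers, but same-numbered mice did not deviate together (r from -0.19 to 0.20 across genes). With the replicate block, 21 members were lower and 2 higher, where 11.1% and 9.44% of all genes were. Dim probes limit Gp6, F2rl2, Gucy1b3 and Tubb1, whose size depends on the background correction.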
